A study of Mus musculus with 8 samples.

Results

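The core circadian clock genes of mouse liver were followed through 8 RNA-seq libraries. They are the 8 genes *Arntl*, *Clock*, *Npas2*, *Per1*, *Per2*, *Per3*, *Cry1* and *Cry2*, taken by symbol from a table of 38283 genes, and each of the 8 has 1 row there. The male C57BL/6 mice all carried floxed *Rora* alleles. RORα LKO mice (labelled Alb-cre;RORa f/f) also carried Cre recombinase under the albumin promoter, which is meant to delete exons 4 and 5 of *Rora* in hepatocytes only, and RORα f/f mice (labelled RORa f/f) carried no Cre. Both genotypes were fed a control diet (CD) or a high-fat diet (HFD) for 10 weeks, starting at 8 weeks of age. The 4 groups had 2 libraries each, and each library pooled liver from 2 mice, so that a group stands for 4 mice. The question put to these genes was whether their mRNA levels differed by genotype, by diet, and whether a genotype difference depended on diet.

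In the mammalian clock, BMAL1 (the product of *Arntl*) pairs with CLOCK or its paralog NPAS2, and the pair binds E-box sequences to switch on the *Per* and *Cry* genes. PER and CRY proteins gather in the cell, enter the nucleus and inhibit the pair that induced them, which closes a loop of about a day. RORα activates *Arntl* through ROR elements, and the REV-ERB repressors (*Nr1d1* and *Nr1d2*) compete for the same elements, while D-box binding factors such as DBP act on the *Per* genes. In liver nearly all of these mRNAs swing with the time of day and with feeding, and *Arntl* and *Npas2* peak at about the opposite time to the *Per* genes. Food was available at all times, and the hour at which the mice were killed is not given in the sources used here. A difference in a gene's mean level and a difference in the phase sampled therefore cannot be told apart in any result below.

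Levels are given as FPKM (a read abundance scaled to transcript length and sequencing depth), and tests were run on log2(FPKM + 1), a scale that understates changes of genes with low FPKM. A library had 10587 to 10706 genes above FPKM 1, and its 10 top genes made up 29.7% to 43.7% of its total FPKM. *Rora* itself did not separate the genotypes on HFD, with FPKM of 7.56 and 7.86 in the f/f libraries and 7.30 and 8.02 in the LKO libraries. On CD it was 8.85 and 8.59 in the f/f libraries and 7.96 and 8.18 in the LKO libraries. The FPKM covers the whole gene and not the floxed exons alone, so it is a weak check, and libraries are called f/f-labelled and LKO-labelled from here on. By its own assays, the study reports strong depletion of RORα mRNA and protein in liver and primary hepatocytes of LKO mice. Of 8 hepatocyte markers all were tested and 7 stood high in every library, with a summed FPKM of 12952 to 14197 on CD and 11281 to 12098 on HFD. The remaining one, *Alb*, was listed at 0 in 4 libraries (CD-fed LKO-labelled 1, HFD-fed f/f-labelled 2 and both HFD-fed LKO-labelled), and read 29902 to 30888 in the other 4.

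Reference sequence around the start sites was searched for short motifs of the kinds that clock factors bind. The RefSeq start-site table (GRCm38.p6, 250 bases before to 50 after each start) held 11 windows for 7 of the 8 genes, and *Per2* had none. Both strands were searched for the E-box CACGTG, for the core AGGTCA shared by ROR and REV-ERB receptors, and for the D-box TTANGTAA. The study describes a ROR element as such a core after an A/T-rich stretch, and states that PPAR elements share the core. The A/T-rich stretch was not part of the search, so a match to the core is not by itself a ROR element. None of these motifs overlaps another in the stretches below. They are printed because they are the matches found in these windows, with the motif in capitals, and TGACCT is AGGTCA read on the other strand.
Arntl (start 2, chr7:113207534-113207555, plus strand): cagaaagtAGGTCAgggacgga
Clock (start 3, chr5:76303586-76303651, minus strand): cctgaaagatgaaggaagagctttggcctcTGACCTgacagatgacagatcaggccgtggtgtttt
Per1 (start 1, chr11:69098753-69098847, plus strand): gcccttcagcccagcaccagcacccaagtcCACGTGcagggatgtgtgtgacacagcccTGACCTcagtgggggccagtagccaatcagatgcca
Per3 (start 1, chr4:151044786-151044900, minus strand): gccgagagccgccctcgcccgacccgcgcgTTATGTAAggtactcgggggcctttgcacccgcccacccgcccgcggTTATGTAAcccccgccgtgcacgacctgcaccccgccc
Cry1 (start 1, chr10:85185079-85185144, minus strand): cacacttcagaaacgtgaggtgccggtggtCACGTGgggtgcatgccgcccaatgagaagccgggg

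An E-box was present in 2 of the 11 windows, 166 bases before the *Per1* start and 60 bases before the *Cry1* start. Of all 32851 windows in the table, 7.15% held one. The ROR core was present in 3 of the 11 windows, 32 bases after the second *Arntl* start, 119 bases before the third *Clock* start and 137 bases before the *Per1* start, against 16.3% of all windows. *Per3* was the only one of the 7 genes with a D-box, and its window held 2, the first beginning 205 and the second 158 bases before the start, against 2.32% of all windows. *Per1* was the only one with both an E-box and a ROR core. The *Arntl* stretch overlaps an annotated exon, and the other 4 stretches lie before their start sites outside annotated exons. These are matches of letters, and binding was not measured in these libraries.

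**Figure D1:**
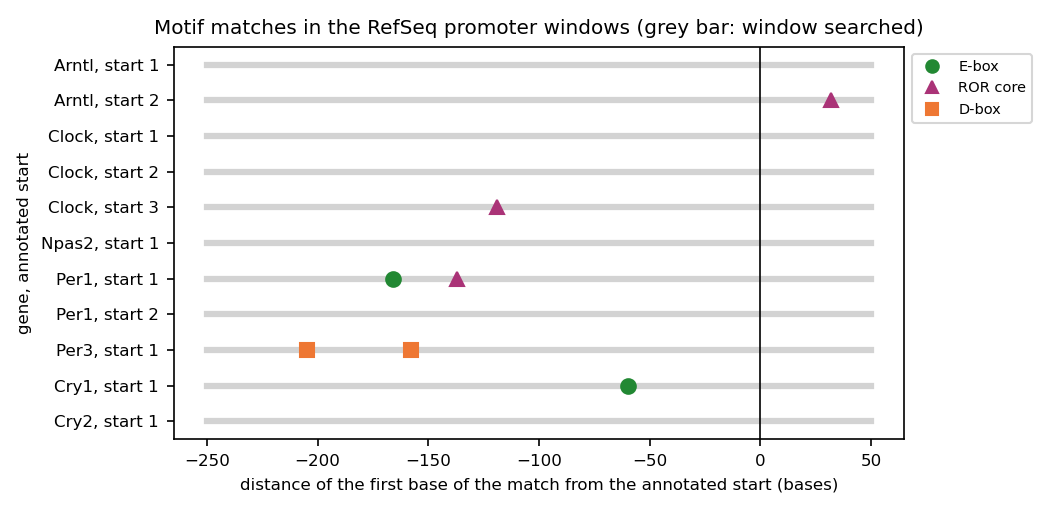
Position of motif matches in the RefSeq start-site windows of the core clock genes. The horizontal axis is the distance in bases from the start site, each line is 1 of the 11 windows, and symbols mark the E-box, the ROR core and the D-box. *Per1* and *Cry1* hold an E-box, *Per3* holds 2 D-boxes, and *Arntl*, *Clock* and *Per1* hold a ROR core.

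FPKM, being scaled by length, allows the genes to be ordered by level. *Cry2* had the highest mean over the 8 libraries at 10.8 FPKM, followed by *Per1* at 10.1, *Per3* at 7.94, *Clock* at 6.68 and *Per2* at 5.36. *Cry1* followed at 1.98, *Arntl* at 0.776 and *Npas2* at 0.137. The repressor genes other than *Cry1* thus stood well above *Arntl* and *Npas2* in these livers. Neighbours in this order were not cleanly apart, since the ranges over the 8 libraries overlapped for every neighbouring pair except *Per2* and *Cry1*. *Per2* exceeded *Cry1* in 8 of 8 libraries and *Arntl* exceeded *Npas2* in 8 of 8, whereas *Cry2* exceeded *Per1* in 5 of 8. *Npas2* did not reach FPKM 1 in any library and was not tested with the others. *Arntl* passed the filter of FPKM above 1 in at least 1 library only through library 1 of each HFD-fed group, so it was tested only because of its HFD values.

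**Figure D2:**
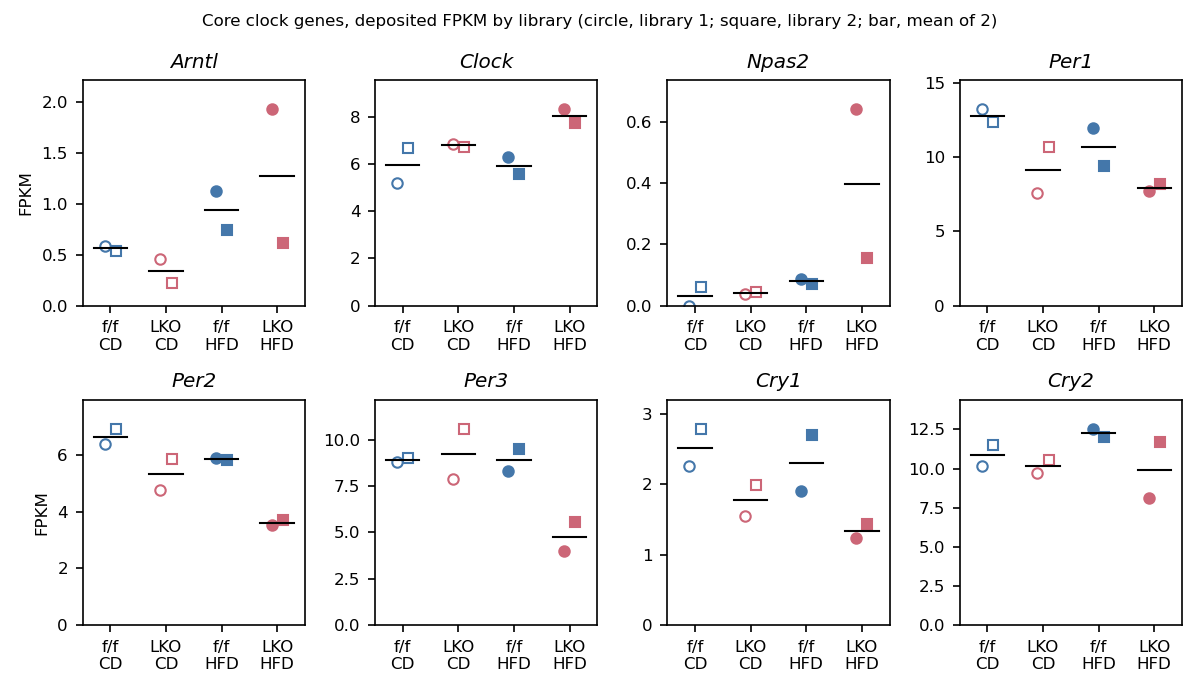
FPKM of the 8 core clock genes in each library, 1 panel a gene, with libraries grouped by diet and genotype label. Circles are library 1 and squares library 2 (each a pool of 2 mice), and the bar is the mean of the 2 libraries of a group. *Per2* and *Per3* are lowest in the HFD-fed LKO-labelled group, at 3.51 and 3.69 FPKM and at 3.99 and 5.55 FPKM, and *Clock* is highest there, at 8.32 and 7.75 FPKM.

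Among the activators, *Arntl* (ENSMUSG00000055116, chromosome 7 of GRCm38, 113207465 to 113314126, plus strand) encodes BMAL1, without which the liver clock stops. Its FPKM was 0.587 and 0.535 under the f/f label and 0.456 and 0.219 under the LKO label on CD, and 1.13 and 0.745 under the f/f label and 1.93 and 0.611 under the LKO label on HFD. All 4 HFD libraries lay above all 4 CD libraries, as for 6.21% of all tested genes, by a narrow margin (0.611 against 0.587 FPKM). The HFD-fed LKO-labelled pair spanned the whole range of the HFD-fed f/f-labelled pair. The HFD mean exceeded the CD mean by 0.51 on the normalized log2 scale when averaged over genotypes, a description with no test, since the gene entered the fit only through HFD libraries. Averaged over diets, its genotype difference was −0.03 (95% interval −0.49 to 0.43).

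*Clock* (ENSMUSG00000029238, chromosome 5, 76209868 to 76304792, minus strand) encodes the usual partner of BMAL1. Its FPKM was 5.21 and 6.67 under the f/f label and 6.85 and 6.74 under the LKO label on CD, and 6.28 and 5.58 under the f/f label and 8.32 and 7.75 under the LKO label on HFD. It was the one core gene for which all 4 LKO-labelled libraries lay above all 4 f/f-labelled libraries. The HFD-fed LKO-labelled pair stood above every other library. Its genotype log2 fold change was 0.40 on HFD (standard error, SE, 0.11, unadjusted p = 0.0093, limma adjusted p = 0.33) and 0.18 on CD (SE 0.11, limma adjusted p = 0.55).

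*Npas2* (ENSMUSG00000026077, chromosome 1, 39193731 to 39363236, plus strand) encodes the CLOCK paralog. It was listed at 0 and at 0.0621 FPKM under the f/f label and at 0.0378 and 0.0431 under the LKO label on CD, and at 0.0860 and 0.0714 under the f/f label and at 0.642 and 0.155 under the LKO label on HFD. All 4 HFD libraries lay above all 4 CD libraries, as for 6.21% of all tested genes, but the lowest HFD value was 0.0714 and the highest CD value 0.0621 FPKM. Both are far under the filter, so this order is not read as a diet pattern. Library 1 of the HFD-fed LKO-labelled group was the highest of the 8, as with *Arntl*. With the filter lowered to FPKM above 0, its HFD-to-CD difference among LKO-labelled libraries was 0.40 on the log2(FPKM + 1) scale (limma adjusted p = 0.28), and its genotype difference on HFD was 0.35 (limma adjusted p = 0.65).

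Of the 3 period genes, *Per1* (ENSMUSG00000020893, chromosome 11, 69095217 to 69109960, plus strand) is the one best known for fast induction by hormones and other signals. Its FPKM was 13.2 and 12.4 under the f/f label and 7.55 and 10.7 under the LKO label on CD, and 11.9 and 9.40 under the f/f label and 7.68 and 8.20 under the LKO label on HFD. On each diet both LKO-labelled libraries lay below both f/f-labelled libraries. The genotype log2 fold change was −0.45 on CD (SE 0.16, unadjusted p = 0.029, limma adjusted p = 0.34) and −0.36 on HFD (SE 0.16, unadjusted p = 0.065, limma adjusted p = 0.56).

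*Per2* (ENSMUSG00000055866, chromosome 1, 91415982 to 91459324, minus strand) encodes a main repressor of the loop. Its FPKM was 6.38 and 6.92 under the f/f label and 4.78 and 5.87 under the LKO label on CD, and 5.90 and 5.83 under the f/f label and 3.51 and 3.69 under the LKO label on HFD. The LKO-labelled libraries lay below the f/f-labelled ones on both diets, and the HFD-fed LKO-labelled pair was the lowest of the 8. On HFD the log2 fold change was −0.57 (SE 0.10, 95% interval −0.81 to −0.32, unadjusted p = 0.0010, limma adjusted p = 0.20), the smallest p of any core gene in that comparison. On CD it was −0.27 (SE 0.10, unadjusted p = 0.034, limma adjusted p = 0.36), and averaged over the diets −0.42 (SE 0.07, limma adjusted p = 0.10).

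*Per3* (ENSMUSG00000028957, chromosome 4, 151003652 to 151044665, minus strand) encodes the period protein that the clock can run without. Its FPKM was 8.80 and 8.99 under the f/f label and 7.88 and 10.6 under the LKO label on CD, and 8.30 and 9.48 under the f/f label and 3.99 and 5.55 under the LKO label on HFD. The other 6 libraries stood between 7.88 and 10.6 with no order by group, and only the HFD-fed LKO-labelled pair stood apart. Its genotype log2 fold change on HFD was −0.78 (SE 0.17, 95% interval −1.19 to −0.38, limma adjusted p = 0.25), the largest of the core genes. *Per3* lies wholly inside *Camta1* on the same strand, so reads of the 2 genes could be split between them. *Camta1* itself had 1.62 and 3.20 FPKM under the f/f label and 1.03 and 2.37 under the LKO label on HFD, which overlap.

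The cryptochromes are the strongest repressors of BMAL1 and CLOCK. *Cry1* (ENSMUSG00000020038, chromosome 10, 85131700 to 85185064, minus strand) had an FPKM of 2.25 and 2.79 under the f/f label and 1.55 and 1.99 under the LKO label on CD, and 1.90 and 2.70 under the f/f label and 1.23 and 1.44 under the LKO label on HFD. LKO-labelled libraries lay below f/f-labelled ones on both diets, with a log2 fold change of −0.50 on HFD (SE 0.17, unadjusted p = 0.022, limma adjusted p = 0.41) and −0.36 on CD (SE 0.17, limma adjusted p = 0.44). Library 2 had the higher *Cry1* value in all 4 groups, with differences of library 1 from library 2 between −0.35 and −0.13 on the log2(FPKM + 1) scale.

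*Cry2* (ENSMUSG00000068742, chromosome 2, 92403646 to 92434043, minus strand) had an FPKM of 10.2 and 11.5 under the f/f label and 9.73 and 10.6 under the LKO label on CD, and 12.5 and 12.0 under the f/f label and 8.10 and 11.7 under the LKO label on HFD. The CD groups overlapped, and on HFD both LKO-labelled libraries lay below the f/f-labelled ones, one of them by a small margin. The log2 fold change on HFD was −0.29 (SE 0.15, 95% interval −0.64 to 0.07, limma adjusted p = 0.61) and on CD −0.06 (95% interval −0.42 to 0.29, limma adjusted p = 0.90). A processed transcript, *D930015M05Rik*, runs antisense to *Cry2* at 0.308 to 1.16 FPKM, and the library kit does not keep strand, so reads from their shared stretch cannot be told apart.

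Counted together on HFD, 1 of the 7 tested core genes (*Clock*) lay higher in both LKO-labelled libraries than in both f/f-labelled ones, and 5 (all 3 *Per* and both *Cry* genes) lay lower. Over all 11634 tested genes such separation held for 19.1% in the higher and 23.0% in the lower direction. None of the 7 passed an adjusted p under 0.05 in limma with Benjamini-Hochberg adjustment, where 0.043% of all genes did. At an unadjusted p under 0.05, 1 lay higher (*Clock*) and 3 lower (*Per2*, *Per3*, *Cry1*), against 5.46% and 4.12% of all genes. The median log2 fold change was −0.36 over the 7 genes and −0.00 over all genes. Library 1 of the HFD-fed LKO-labelled group weighs on this count, which was 2 without it (*Per2* and *Per3*), 6 without library 2 of that group and 3 without HFD-fed f/f-labelled library 2.

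On CD the LKO-labelled libraries lay apart from the f/f-labelled ones upward for 1 core gene (*Clock*) and downward for 4 (*Arntl*, *Per1*, *Per2*, *Cry1*), against 20.8% and 22.6% of all genes. No core gene passed the adjusted threshold, which 0.0172% of all genes did. *Per1* and *Per2* reached an unadjusted p under 0.05, both lower, where 6.15% of all genes were higher and 6.12% lower by that rule. That count of 2 dropped to 0 when any one of CD-fed f/f-labelled library 1, CD-fed LKO-labelled library 1 or either HFD-fed LKO-labelled library was left out, and without CD-fed f/f-labelled library 2 *Clock* was the 1 gene that reached it. Without either HFD-fed f/f-labelled library the 2 genes were *Per1* and *Cry1*. The 2 diet-specific comparisons use different libraries, although one estimate of the spread serves both.

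The difference of the genotype contrasts between the diets is the direct test of whether genotype mattered more on HFD. *Per3* had the largest such difference at −0.83 on the log2 scale (SE 0.24, 95% interval −1.40 to −0.26, unadjusted p = 0.011). Its limma adjusted p was 0.56, and 0 of the 7 genes passed adjustment here, as against 0.0344% of all genes. *Per3* was also the only core gene at an unadjusted p under 0.05, a level that 4.01% of all genes reached in that direction and 4.35% in the other. Without HFD-fed f/f-labelled library 2 no core gene reached it, without HFD-fed LKO-labelled library 2 there were 3, and without CD-fed f/f-labelled library 1 or CD-fed LKO-labelled library 1 there were 2. For *Per2* the difference was −0.29 (95% interval −0.64 to 0.06) and for *Clock* 0.22 (95% interval −0.15 to 0.59), so a larger genotype difference on HFD was not shown for either.

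**Figure D3:**
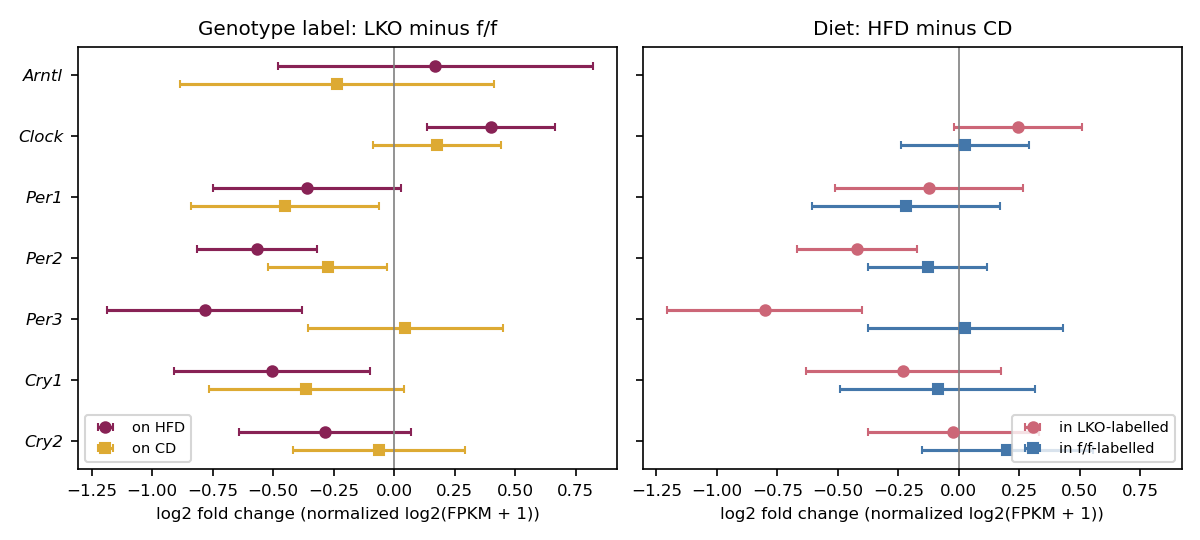
Log2 fold changes of the 7 tested core clock genes on the log2(FPKM + 1) scale, with 95% intervals from limma. Points give the LKO label against the f/f label on HFD and on CD, and HFD against CD under each label, where *Arntl* is not drawn because it entered the fit only through HFD values. The intervals of *Per2* and *Per3* on HFD end at −0.32 and −0.38, below 0, and the *Arntl* genotype interval there runs from −0.48 to 0.82.

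Averaged over the diets, 5 of the 7 genes had an unadjusted p under 0.05 for the genotype label, with *Clock* higher and *Per1*, *Per2*, *Per3* and *Cry1* lower, against 7.18% of all genes higher and 6.3% lower. None passed adjustment, which 0.103% of all genes did. *Per2* came nearest, with the adjusted p of 0.10 given above. *Clock* was the single gene of the 7 with no overlap between the 4 libraries of either label, where 2.42% of all genes lay higher and 2.49% lower without overlap. *Per2*, for which the direction held on either diet, overlapped across diets because the CD-fed LKO-labelled library 2, at 5.87 FPKM, reached the level of the HFD-fed f/f-labelled pair.

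HFD was then set against CD under each label. *Arntl* is left out of the diet tests and counts, which therefore cover 6 genes. Among f/f-labelled libraries none of the 6 had even an unadjusted p under 0.05, where 9.94% of all genes were higher and 9.22% lower by that rule and 1.33% passed adjustment. There *Cry2* lay higher on HFD without overlap (22.3% of all genes) and *Per1* and *Per2* lower (27.6%). Among LKO-labelled libraries *Per3* lay lower on HFD by a log2 fold change of −0.80 (SE 0.17, 95% interval −1.21 to −0.40, unadjusted p = 0.0023, limma adjusted p = 0.058). *Per2* lay lower by −0.42 (SE 0.10, limma adjusted p = 0.082). In that comparison 0 of 6 passed adjustment, as 3.02% of all genes did, while 0 were higher and 2 were lower at an unadjusted p under 0.05, against 11.7% and 9.69% of all genes. *Clock* lay higher on HFD without overlap, as did 22.9% of all genes, and *Per2*, *Per3* and *Cry1* lay lower, as did 30.2%. The HFD-fed LKO-labelled libraries serve here and in the genotype comparison on HFD, so the low *Per2* and *Per3* values enter both. The test of whether the diet difference depended on the label is the same test as in the paragraph on the difference of contrasts, in which *Per3* alone reached an unadjusted p under 0.05.

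*Per3* in the LKO-labelled libraries sat close to the threshold, and its limma adjusted p was 0.04996 with a pseudocount of 0.1 (log2 fold change −0.91) and 0.033 with only genes above FPKM 1 in all 8 libraries. It was 0.12 with all genes above FPKM 0, 0.080 without the trend and 0.19 with the 4 libraries of the comparison alone, and with each library left out it ran from 0.086 to 0.26. Averaged over genotypes, the diet difference was −0.27 for *Per2* (limma adjusted p = 0.064), and −0.39 for *Per3* (limma adjusted p = 0.090), and none of the 6 passed adjustment, as 9.89% of all genes did. Each of the 6 overlapped between all HFD and all CD libraries, where 6.21% of all genes lay higher and 10.3% lower on HFD without overlap. At an unadjusted p under 0.05 the averaged diet count was 2 (*Per2* and *Per3*, both lower), against 14.9% of all genes higher and 13.0% lower, and it was 1 (*Per2*) without CD-fed LKO-labelled library 2 or HFD-fed f/f-labelled library 1. Without CD-fed LKO-labelled library 1 *Per2* passed adjustment (−0.34, limma adjusted p = 0.041).

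Liver samples hold several cell types, and in bulk RNA fewer cells of a type and less RNA per cell cannot be told apart. The summed FPKM of 6 stellate cell and fibroblast markers, all tested, was 38.1 to 60.3 on CD and 68.2 to 94.0 on HFD, without overlap between the diets. Most of that sum was *Dcn*, at 26.4 to 45.3 on CD and 52.5 to 72.2 on HFD, whereas the collagen genes *Col1a1* (0.548 to 1.08 on CD, 0.570 to 0.921 on HFD) and *Col3a1* (1.53 to 2.82 and 1.47 to 2.57) overlapped between the diets. *Reln* (6.38 to 9.15 on CD, 10.1 to 14.4 on HFD) and *Des* (0.517 to 0.732 and 0.805 to 1.10) also lay higher on HFD without overlap, and *Lrat* overlapped. With *Dcn* these were 3 of the 6 markers, against 6.21% of all genes. The summed FPKM of 6 Kupffer cell and macrophage markers, all tested, was 60.6 to 69.2 under the f/f label and 75.5 to 98.1 under the LKO label on HFD. On CD it was 76.4 and 100 under the f/f label and 75.9 and 76.3 under the LKO label. The HFD-fed f/f-labelled pair thus had the lowest sums. On HFD 3 of the 6 lay higher under the LKO label without overlap, against 19.1% of all genes. The 5 adipocyte markers, of which only *Cfd* was tested, summed on HFD to 1.04 and 2.17 under the f/f label and 5.55 and 5.30 under the LKO label, where *Adipoq*, which defines the type, was listed at 0 in both libraries. The 6 endothelial markers, all tested, summed to 36.6 to 47.9 on CD and 44.3 to 55.6 on HFD. Of 4 erythroid markers 3 were tested. All 3 lay lower on HFD in both LKO-labelled libraries, as did 30.2% of all genes. The erythroid list summed to 126 and 226 on CD and 98.1 and 67.4 on HFD under the LKO label, and to 59.4 and 187 on CD and 42.5 and 106 on HFD under the f/f label. *Alas2*, the erythroid heme enzyme, fell under the LKO label (−0.66, limma adjusted p = 0.031) and lay lower under the f/f label (−0.46, limma adjusted p = 0.091). Its difference of contrasts was −0.20 (limma adjusted p = 0.73). For *Hba-a1* and *Hbb-bt* the limma adjusted p under the LKO label was 0.59 and 0.54. The part of these markers, and of *Alb* at 0, in the clock gene differences was not tested.

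The 2 libraries of a group were not alike for every clock gene. On the log2(FPKM + 1) scale, library 1 of the HFD-fed LKO-labelled group exceeded library 2 by 0.86 for *Arntl* and by 0.51 for *Npas2*. In the same pair library 1 lay below library 2 for *Cry2* (−0.48) and *Per3* (−0.39). The median absolute difference over all tested genes in that pair was 0.110, so these 4 genes differed between pools of one group more than most genes did. In the CD-fed LKO-labelled pair *Per1* (−0.45) and *Per3* (−0.38) also lay lower in library 1, and *Arntl* lay higher there by 0.26, where the median over all genes was 0.124. *Per3* was lower in library 1 of all 4 groups, by as little as −0.03 in the CD-fed f/f-labelled pair. *Arntl* was higher in library 1 of all 4 groups, by 0.05 and 0.29 in the f/f-labelled CD and HFD pairs. Leaving out library 1 of the HFD-fed LKO-labelled group turned the genotype difference of *Arntl* on HFD from 0.17 (limma adjusted p = 0.88) to −0.25, so that its sign there rests on that library.

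The other genes of the clock pathway were read from lists compiled by hand. The nuclear receptor loop list, which sets the drive on *Arntl*, had 4 of 5 genes tested (*Rorb* did not pass the filter). On HFD none of the 4 passed adjustment between genotypes, as 0.043% of all genes did, and 1 was lower at an unadjusted p under 0.05, against 4.12% of all genes. That was *Nr1d2* (REV-ERBβ), at 28.6 and 27.5 FPKM in the f/f-labelled and 20.5 and 22.4 in the LKO-labelled libraries (−0.36, limma adjusted p = 0.23). *Nr1d1* (REV-ERBα), the repressor best known for holding down *Arntl*, had 28.1 and 26.5 FPKM under the f/f label and 23.7 and 23.8 under the LKO label on CD, and 65.6 and 48.3 under the f/f label and 55.5 and 64.0 under the LKO label on HFD. It rose on HFD under both labels, by 1.05 (limma adjusted p = 0.037) and 1.35 (limma adjusted p = 0.018) on the log2 scale. *Arntl* FPKM also lay higher in the HFD libraries, but this is a description with no test, since that gene entered the fit only through HFD libraries. A link between the levels of *Nr1d1* and *Arntl* was not tested.

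All 7 clock-controlled transcription factors were tested. Between genotypes on HFD none passed adjustment, and 5 were lower and none higher at an unadjusted p under 0.05, against 4.12% and 5.46% of all genes, with a list median of −0.59. *Dbp*, an E-box target that in turn drives D-box genes, had 72.3 and 58.5 FPKM in the f/f-labelled and 28.5 and 36.2 in the LKO-labelled libraries (−1.0, limma adjusted p = 0.14). On CD it also lay lower, at 45.0 and 40.5 FPKM under the f/f label and 28.9 and 36.8 under the LKO label (−0.37, limma adjusted p = 0.41). *Ciart*, a repressor of BMAL1 and CLOCK, differed by −0.79 (limma adjusted p = 0.23), *Tef*, a relative of *Dbp*, by −0.55 (limma adjusted p = 0.23), and the E-box repressors *Bhlhe41* and *Bhlhe40* by −0.88 (limma adjusted p = 0.41) and −0.59 (limma adjusted p = 0.44). *Bhlhe41* is near the floor, at 2.44 and 1.46 FPKM in the f/f-labelled and 0.285 and 0.968 in the LKO-labelled libraries on HFD. Besides that f/f-labelled pair, only CD-fed LKO-labelled library 2 (1.01 FPKM) took it past the filter. On CD 1 of the 7 was higher and 2 were lower at an unadjusted p under 0.05, against 6.15% and 6.12% of all genes, with a list median of −0.04 and none past adjustment. *Ciart* was among the lower (−0.65, limma adjusted p = 0.21), and *Bhlhe40* was the higher (0.50, limma adjusted p = 0.41). The difference of contrasts was −0.14 for *Ciart* (limma adjusted p = 0.87) and −1.10 for *Bhlhe40* (limma adjusted p = 0.56). It was −0.63 for *Dbp* (limma adjusted p = 0.57), −0.50 for *Tef* (limma adjusted p = 0.56) and −1.03 for *Bhlhe41* (limma adjusted p = 0.59). Of the 7 genes 4 were lower for this difference at an unadjusted p under 0.05, against 4.01% of all genes. None passed adjustment, so a larger genotype difference on HFD was not shown for this list. With diet, among the LKO-labelled libraries, *Hlf* rose by 0.68 (limma adjusted p = 0.027) and *Bhlhe40* fell by 1.23 on the log2 scale (limma adjusted p = 0.036). *Hlf* is named because it passed that test.

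Of 16 genes for kinases, ubiquitin ligases and other modifiers of clock proteins, all were tested and none passed adjustment between genotypes on either diet. On HFD 1 was lower and none higher at an unadjusted p under 0.05, against 4.12% and 5.46% of all genes, so 1 of 16 is near the background. It was *Usp2*, a deubiquitinase whose mRNA is itself rhythmic, at 22.8 and 22.7 FPKM in the f/f-labelled and 9.64 and 14.0 in the LKO-labelled libraries (−0.89, limma adjusted p = 0.27). On CD *Usp2* differed by −0.63 (limma adjusted p = 0.32), and it was again the 1 gene of the 16 at an unadjusted p under 0.05, against 6.12% of all genes lower. The list median was 0.04 on HFD, close to that of all genes.

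Of 10 clock output genes of liver, all were tested, and 1 fell and none rose between genotypes on HFD after adjustment, as against 0.043% of all genes in either direction, with 5 lower at an unadjusted p under 0.05, against 4.12% of all genes, and a list median of −0.49. The one that fell was *Lpin1*, a phosphatidate phosphatase and coactivator in fat metabolism, at −1.22 on HFD (limma adjusted p = 0.046) and −1.91 on CD (limma adjusted p = 0.0063). *Cyp7a1*, the rate-limiting enzyme of bile acid synthesis, differed by −0.94 on HFD (limma adjusted p = 0.33), *Por*, the electron donor of cytochromes P450, by −0.63 (limma adjusted p = 0.27), *Wee1*, a cell cycle kinase, by −0.61 (limma adjusted p = 0.32) and *Noct*, a rhythmic phosphatase of nucleotide cofactors, by −0.27 (limma adjusted p = 0.34). On CD *Cyp7a1* differed by −1.23 (limma adjusted p = 0.20), *Noct* by −0.71 (limma adjusted p = 0.076), *Por* by −0.27 and *Wee1* by −0.26. There 3 of the 10 were lower at an unadjusted p under 0.05, against 6.12% of all genes, with a list median of −0.31. Averaged over the diets 2 of the 10 were lower after adjustment, *Lpin1* and *Noct* (−0.49, limma adjusted p = 0.049), as against 0.103% of all genes in either direction. With diet the log2 fold change of *Noct*, which fell under both labels, was −1.22 in f/f-labelled (limma adjusted p = 0.0023) and −0.77 in LKO-labelled libraries (limma adjusted p = 0.016), and *Lpin1* rose by 0.76 in LKO-labelled libraries (limma adjusted p = 0.030).

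**Figure D4:**
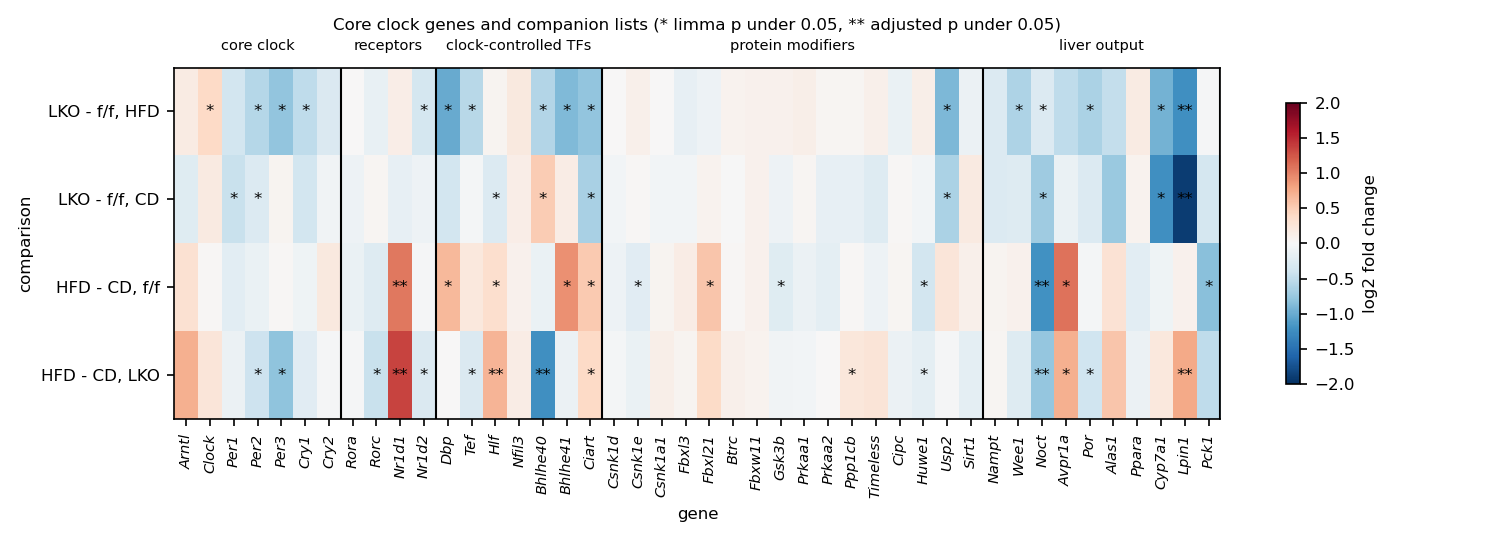
Log2 fold changes of the core clock genes and of the 4 companion lists in the genotype and diet comparisons, as a colour scale on log2(FPKM + 1). Columns are genes by list, rows are comparisons, 1 star marks an unadjusted and 2 stars an adjusted limma p under 0.05 (none is drawn for *Arntl* with diet). The clock-controlled factors have a list median of −0.59 for genotype on HFD and −0.04 on CD, and none of them passed adjustment for the difference of these contrasts.

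Genes whose profile over the 8 libraries most resembled that of a core gene were found by Pearson's r on the normalized log2 scale, among 9839 genes with FPKM above 1 in all libraries. The 8 points share their libraries and group structure, and the best of all these genes was taken, so r is a description. For *Per2* the most alike were *Fam47e* (r = 0.980), *Wfs1* (r = 0.971) and *Por* (r = 0.968), and *Bri3bp* ran most opposite (r = −0.987). For *Per3* it was *Mms19* (r = 0.987) with *Rnf10* opposite (r = −0.981), and for *Clock* it was *Psap* (r = 0.987) with *B3galt1* opposite (r = −0.965). *Per1* was most like *Azin1* (r = 0.972), *Cry1* like *Rpl10-ps3* (r = 0.960), *Cry2* like *Mllt10* (r = 0.969) and *Arntl* like *Ube2g1* (r = 0.964). *Npas2*, on values that were not quantile normalized, was most like *Lipa* (r = 0.940). *Arntl* and *Npas2* could not appear as neighbours, since they did not have FPKM above 1 in all libraries. None of the other core clock genes was among the 3 most alike or the 3 most opposite of another.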

How the data were processed

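Liver RNA was made into unstranded polyA libraries. The authors trimmed reads (cutadapt 1.0), aligned them to GRCm38 (TopHat2 2.0.7) and estimated expression with Cufflinks; the deposited values are FPKM per gene, with no read counts used here, so the depth behind a value is not known. Here symbols and coordinates came from GENCODE M21 by Ensembl identifier. As in the study's methods, a gene needed FPKM above 1 in 1 or more libraries, a pseudocount of 1 was used, and log2 values were quantile normalized. limma 3.58.1 in R 4.3.3 was fitted once to the 4 group means, with trended variance and Benjamini-Hochberg adjustment over 11634 genes in each of 7 comparisons. Residual degrees of freedom were 4, and moderation added 2.8. The study's permutation of samples was not rebuilt. The fit was run on simulated data with added changes larger than any core gene difference in the main fit. Whether it would find changes of the size seen in the core genes was not tested.

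The members and lists were chosen with earlier results of these data known. From the same libraries, the study reports that a group of genes lower in HFD-fed LKO livers related mainly to circadian rhythm. The counts of lower genes on HFD given here are therefore not independent of that report. All 8 members are named. Of the companion lists, genes with an unadjusted p under 0.05 between genotypes on HFD are named, at most 6 a list, with *Rora*, *Nr1d1* and *Nr1d2*, and pattern neighbours are those with the highest and lowest r. The rule for printing promoters covered the E-box and the ROR core, and the *Per3* stretch was added after its D-boxes were seen. Alternatives were no normalization, median centring, a pseudocount of 0.1, 2 other filters, no trend, the replicate block, a fit of 4 libraries and each library left out. Protein sequences were not analysed here. Figures were drawn with matplotlib 3.10.9 in Python 3.11.15.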

Additional observations from a re-analysis of the deposited data

How the results depend on the processing

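Over the 7 tested genes, 756 fold changes were recomputed. Of these 729 kept direction and side of the adjusted threshold, 7 newly passed it and 20 turned direction. *Per3* with diet in f/f-labelled libraries turned to −0.0035 without quantile normalization. The other turns came with 1 library left out, where values ran for *Arntl* between genotypes on HFD from −0.25 to 0.59, on CD for *Cry2* from −0.14 to 0.016 and *Per3* from −0.15 to 0.24. For the difference of contrasts they ran for *Per1* from −0.14 to 0.32, *Cry1* from −0.34 to 0.054, *Arntl* from −0.015 to 0.83 and *Cry2* from −0.45 to 0.0082. With diet in f/f-labelled libraries they ran for *Per3* from −0.070 to 0.12, *Clock* from −0.12 to 0.17 and *Cry1* from −0.28 to 0.11, and in LKO-labelled libraries for *Per1* from −0.36 to 0.11 and *Cry2* from −0.25 to 0.21. Averaged, they ran for *Arntl* by genotype from −0.24 to 0.18 and *Cry2* by diet from −0.026 to 0.20. The cause was not tested.

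With 1 library left out, core genes at an unadjusted p under 0.05 numbered 2 to 6 between genotypes on HFD, 0 to 2 on CD, 0 to 3 for the difference of contrasts and 1 to 3 with diet averaged over genotypes, where 0 to 1 passed adjustment. The averaged diet numbers include *Arntl*, which entered only through HFD libraries and is left out of the diet counts in the main text. On CD the number was 1 (*Arntl*) with only its 4 libraries. In LKO-labelled libraries 1 core gene, *Per3*, passed adjustment with diet under a pseudocount of 0.1, under FPKM above 1 in all 8 libraries and with the replicate block (−0.80, limma adjusted p = 0.038). Averaged over genotypes 1 passed without quantile normalization (*Per2*, −0.30, limma adjusted p = 0.046) and 1 with the replicate block (*Per3*, −0.39, limma adjusted p = 0.043). The block turned no other core gene across the adjusted threshold. Same-numbered libraries did not deviate together (r = 0.145 on CD and 0.0878 on HFD, 0.0211 and 0.0236 without genes listed at 0), so the number was not read as a pairing. *Arntl* could not be fitted with FPKM above 1 in all 8 libraries, and a fit of 4 libraries was not run for the averages and the difference of contrasts.

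Genes passing adjustment over the whole table moved more. Between genotypes on HFD there were 5, 24 with FPKM above 0, and 4 to 25 with 1 library left out. On CD there were 2, but 1 with a pseudocount of 0.1, 7 with FPKM above 1 in all 8 libraries, 10 with FPKM above 0, 4 without the trend, 0 with only 4 libraries, and 2 to 20 with 1 library left out. For the difference of contrasts there were 4, but 2, 0 and 19 under the first 3 of these settings and 11 to 21 with 1 library left out. With diet in f/f-labelled libraries there were 155, but 323 with FPKM above 1 in all 8, 46 with FPKM above 0, 42 without the trend, 34 with the replicate block, 5 with only 4 libraries, and 12 to 34 with 1 library left out. In LKO-labelled libraries the 351 became 570, 135, 229, 223 and 0 in the same order, and 19 to 79. For genotype averaged over diets the 12 became 7 without quantile normalization, 50 with FPKM above 1 in all 8 and 28 with FPKM above 0, and 12 to 27. For diet averaged over genotypes the 1151 became 704 with FPKM above 0, and 335 to 728. Read depth was not used here, so no counting interval can be given for low values such as those of *Arntl* and *Npas2*.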
